A study of Mus musculus with 16 samples.

Results

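The calcium cycling genes of the endoplasmic and sarcoplasmic reticulum were followed in mouse fat at 2 housing temperatures. The set holds 10 named genes, found by symbol among the 46078 genes of the deposited table, and all 10 were present: the calcium pumps Atp2a1, Atp2a2 and Atp2a3, the pump inhibitors Sln and Pln, the ryanodine receptors Ryr1, Ryr2 and Ryr3, and the inositol trisphosphate (IP3) receptors Itpr1 and Itpr2. Brown fat (BAT, for brown adipose tissue) and the white fat of the inguinal pad (WAT) from female wild-type C57BL/6 mice, 16 weeks old, were profiled by poly(A) RNA sequencing, and all mice had been bred and weaned at 30 °C. The groups BAT_30C and WAT_30C stayed at 30 °C. The groups BAT_5C and WAT_5C came from mice that, when 10 to 12 weeks old, went to 18 °C for 2 weeks before spending 3 weeks at 5 °C. Each of the 4 groups has 4 libraries, with 54264023 to 71289020 counts each, and food was withdrawn for 2 to 3 h before collection.

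Reticulum pumps of the SERCA type move calcium from the cytosol into the reticulum at the cost of ATP, and ryanodine and IP3 receptors let it out again. A pump that spends ATP while calcium leaks back, or while a bound peptide such as sarcolipin lowers its transport, releases heat, and such cycling is known as a source of heat in muscle and has been described in fat cells. SERCA1 (Atp2a1) and the type 1 ryanodine receptor (Ryr1) are the pump and the release channel of fast skeletal muscle fibres, while SERCA2 (Atp2a2) is found in nearly all cells and IP3 receptors answer hormone signals in most of them.

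Several labels and libraries stood apart and touch what follows. In 4 BAT libraries, BAT_30C replicates 3 and 4 and BAT_5C replicates 1 and 2, a source label named the opposite temperature to the title and housing label, which set the groups here. Ucp1, the heat-producing uncoupling protein of brown fat, was at 2019 CPM (counts per 1e6 of the scaled library size) or less in BAT_30C and at 12388 CPM or more in BAT_5C. The tissue label of the BAT libraries also names an inguinal depot; markers of brown fat cells had a geometric mean of 69.7 to 878 CPM in them, against 0.906 to 48.7 CPM in WAT, and markers of mammary epithelium, a tissue of the inguinal pad, were at 0.131 to 2.83 CPM. The library labelled WAT_5C replicate 1 held 3 counts of Xist, an RNA made by female cells, against 11136 or more in each of the other 15 libraries, and its mammary markers were at 0.685 CPM against 47.7 to 72.9 CPM in the other WAT libraries. Results in WAT are therefore given with and without it. Whether the 16 libraries are from 16 mice is not stated, so p-values measure the spread among libraries, which may be technical.

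Skeletal muscle RNA was present in very unequal amounts. The geometric mean of 15 fast muscle markers (among them Acta1, Ckm and Myh4) was 45.003, 12.7, 0.273 and 45.9 CPM in BAT_30C replicates 1 to 4 and 23.1, 67.8, 31.2 and 0.223 CPM in BAT_5C. In WAT_30C it was 4.82, 69.8, 144 and 37.0 CPM, and in WAT_5C it was 117, 0.545, 3.09 and 7.40 CPM. Muscle RNA was thus high in some libraries of every group, and 1 library of each BAT group, BAT_30C replicate 3 and BAT_5C replicate 4, was nearly free of it. Ckm was at 0 counts in both of these libraries. The log2 level of the list differed between temperatures by 0.15 in BAT (exact permutation p = 0.857, two-sided) and by -2.57 in WAT (p = 0.286); without WAT_5C replicate 1 the WAT difference was -3.98 (exact permutation p = 0.114). The smallest p that 4 against 4 libraries allow is 0.0286. With 3 against 4 libraries the smallest possible p lies above 0.05, so the test without WAT_5C replicate 1 could not pass, and no conclusion is drawn from it. Tnnc2, a troponin on the list, had 5 counts or fewer in every library, and 74% of its annotated exon bases are overlapped by Ube2c on the other strand.

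**Figure D1:**
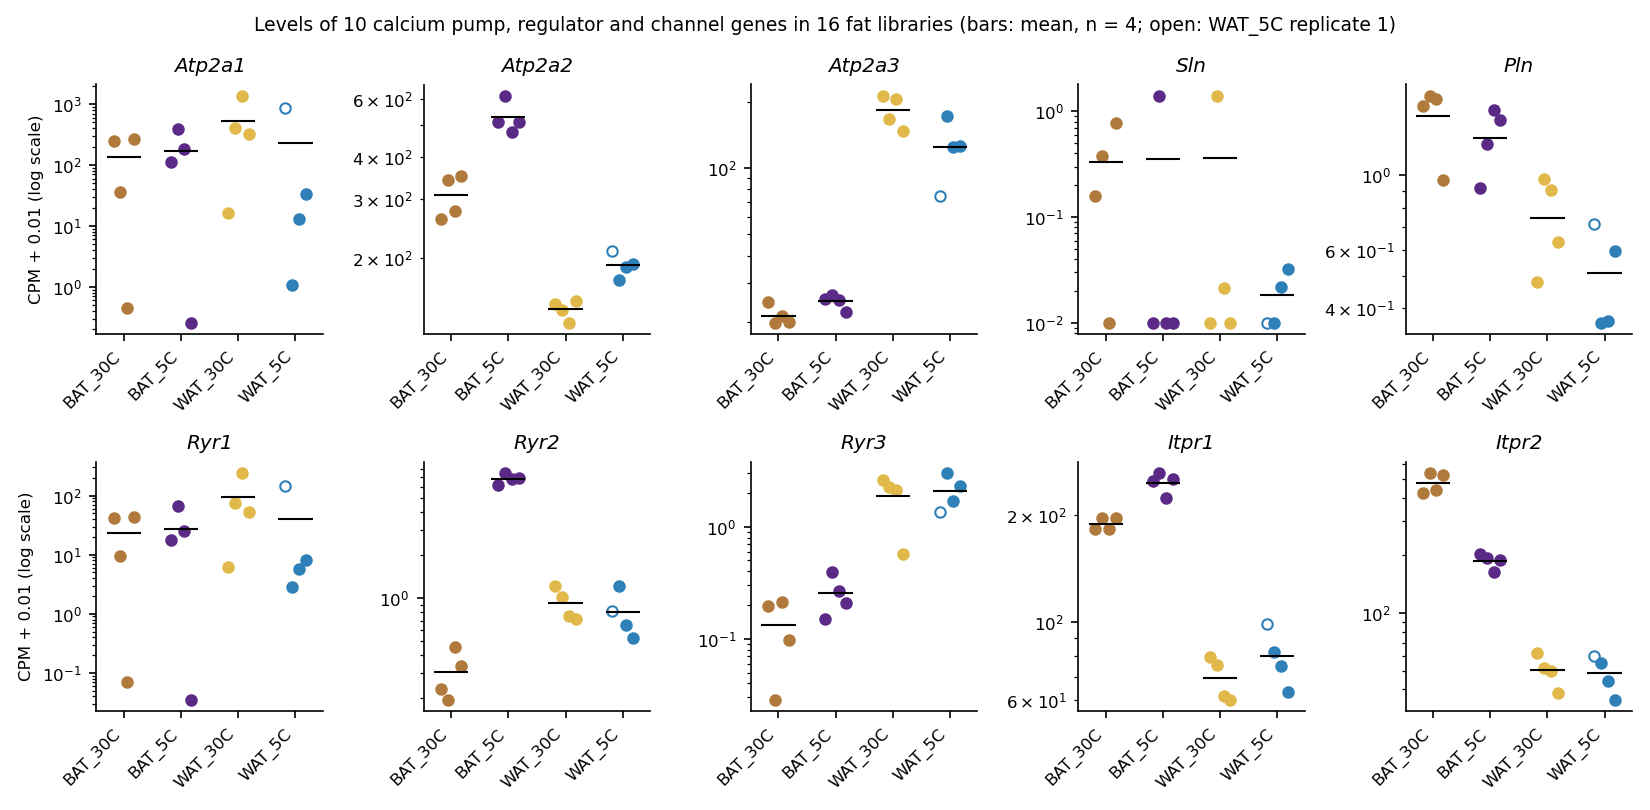
Level of each of the 10 genes in 16 libraries, as CPM + 0.01 on a log axis, with 1 point per library, the group mean as a bar and WAT_5C replicate 1 as an open point. Ryr2 and Atp2a2 lie higher and Itpr2 lower in every BAT_5C library than in any BAT_30C library, whereas Atp2a1 runs from 0.445 to 266 CPM within BAT_30C. The share of all genes that separate in this way is not given. Of all 16213 genes tested in BAT, 59.5% had an edgeR adjusted p under 0.05.

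In BAT, housing at 5 °C went with more Atp2a2, Ryr2 and Itpr1 and less Itpr2. Of the 10 genes 9 could be tested there: 3 rose and 1 fell at an edgeR adjusted p under 0.05. Of all 16213 genes tested in BAT, 59.5% passed, 29.2% higher and 30.3% lower, so 4 of 9 is not more than the background. In WAT none of 9 tested genes passed, where 0.0632% of all 18975 genes did. The count in WAT depended on the tool. At an unadjusted p under 0.05 the edgeR test gave 3430 genes of the whole table, among them Atp2a2 and Atp2a3; DESeq2 called 1119 genes and limma-voom 2268 at an adjusted p under 0.05, with Atp2a2 among the former and both Atp2a2 and Atp2a3 among the latter. Scaling matters as well. With library totals in place of TMM scaling, the median log2 change of all genes in BAT moved from -0.05 to -0.43, and the calls from 4741 higher and 4906 lower to 2323 higher and 8831 lower. In WAT the calls moved from 12 higher and 0 lower to 73 higher and 9 lower. In bulk tissue, fewer cells of a type and less RNA per cell cannot be told apart.

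**Figure D2:**
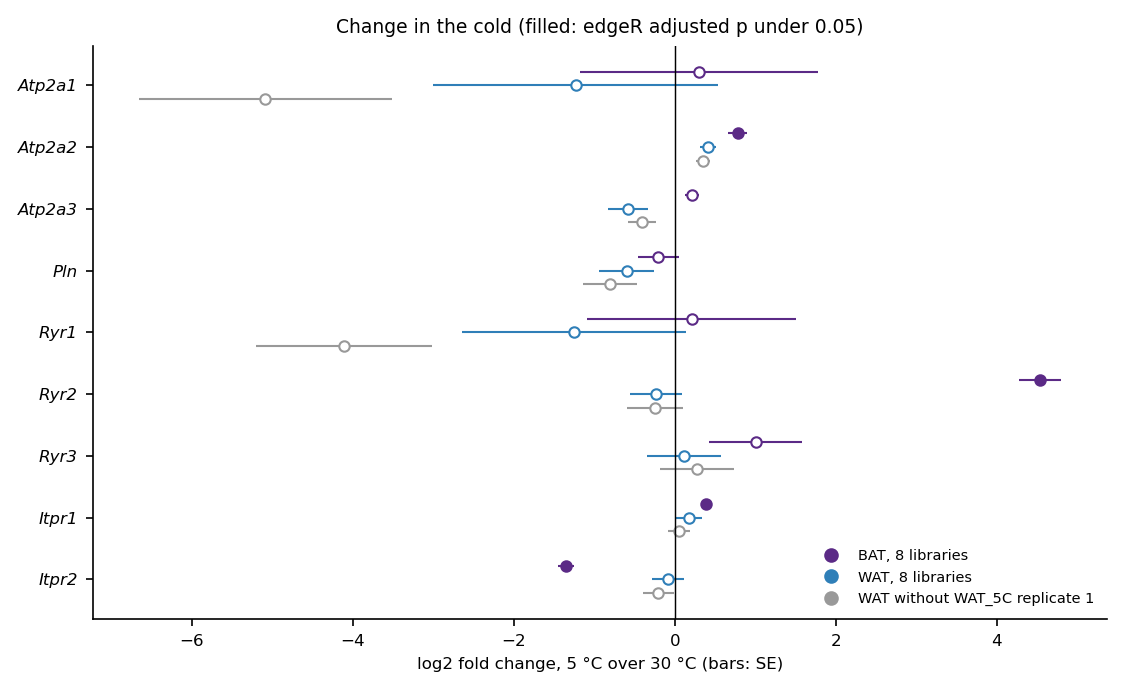
Log2 fold change between 5 °C and 30 °C (points, with SE as bars) for the 9 genes tested, in BAT, in WAT and in WAT without WAT_5C replicate 1; filled points have an edgeR adjusted p under 0.05. Ryr2, Atp2a2, Itpr1 and Itpr2 in BAT are filled, and Atp2a1 and Ryr1 carry the widest error bars in both tissues.

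Among the pumps, Atp2a2 responded to cold in BAT. Atp2a2 (ENSMUSG00000029467) encodes SERCA2, whose forms include the housekeeping pump of the reticulum and the pump of heart and slow muscle. It was at 262, 341, 276 and 352 CPM in BAT_30C and at 509, 612, 478 and 512 CPM in BAT_5C. All 4 cold libraries lay above all 4 warm ones, a log2 fold change of 0.78 (SE 0.11, edgeR adjusted p = 0.000264), or 1.72-fold. With library totals the change was 0.41 (edgeR adjusted p = 0.00718), and with the fast muscle marker level as a covariate it was 0.78. That covariate holds no slow muscle markers, so the part of slow muscle RNA in the change was not tested. The pair of BAT libraries nearly free of muscle RNA had 276 CPM at 30 °C and 512 CPM at 5 °C.

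In WAT, Atp2a2 was at 145, 139.6, 128 and 149 CPM at 30 °C and at 209, 171, 188 and 191 CPM at 5 °C. These groups did not overlap either, with a log2 difference of 0.41 (SE 0.10), but the adjusted p was 0.154 by edgeR, and 0.0719 without WAT_5C replicate 1. The share of all genes whose groups do not overlap is not given here for BAT or WAT, so lack of overlap is only a description. The difference between the WAT and BAT cold effects was -0.34 (edgeR adjusted p = 0.154). Without WAT_5C replicate 1 this difference was -0.44 and passed the test (edgeR adjusted p = 0.0433). BAT held 2.20-fold more Atp2a2 than WAT at 30 °C and 2.78-fold more at 5 °C (log2 1.13 and 1.48, edgeR adjusted p = 7.59e-07 and 6.07e-08). With library totals these were 1.21-fold and 1.47-fold. The median gene moved by a like amount under that scaling, from -0.03 to -0.88 on the log2 scale at 30 °C and from -0.19 to -1.12 at 5 °C.

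Atp2a3 (ENSMUSG00000020788) encodes SERCA3, a pump of blood cells, endothelium and some epithelia. It was the reverse of Atp2a2 between tissues: 24.7, 19.9, 21.3 and 20.001 CPM in BAT_30C against 212, 168, 205 and 147 CPM in WAT_30C. BAT was lower by 3.09 on the log2 scale at 30 °C (SE 0.20, edgeR adjusted p = 1.71e-08), an 8.52-fold difference, and by 2.32 at 5 °C (edgeR adjusted p = 1.21e-07). T, NK and B cell markers were also higher in WAT, at 21.0 to 107 CPM against 0.392 to 1.36 CPM in BAT. Macrophage markers were at 53.9 to 110 CPM in WAT and 16.6 to 24.2 CPM in BAT. Mammary epithelium markers were at 0.685 to 72.9 CPM in WAT and 0.131 to 2.83 CPM in BAT. Endothelium markers went the other way, at 46.5 to 83.1 CPM in WAT and 133 to 160 CPM in BAT. The part of these cells in the Atp2a3 difference was not tested. Under cold, Atp2a3 was at 25.5, 26.6, 25.4 and 22.3 CPM in BAT_5C, where it overlapped with BAT_30C. The log2 difference was 0.22 (edgeR adjusted p = 0.0525), and -0.16 with library totals.

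WAT_5C libraries held 74.9, 172, 124 and 126 CPM of Atp2a3. The lowest was WAT_5C replicate 1, which also had the lowest level of T, NK and B cell markers among the WAT libraries, 21.0 CPM against 78.0 CPM or more in WAT_30C. Its mammary markers were also the lowest of the WAT libraries (0.685 CPM) and its endothelium markers the highest (83.1 CPM). The cold difference in WAT was -0.58 with all libraries (SE 0.25, edgeR adjusted p = 0.273) and -0.41 without that one (SE 0.17, edgeR adjusted p = 0.203). The genes most like Atp2a3 over the 8 WAT libraries were Dhx16, Slc16a6 and Grk6 (Pearson r 0.9961 to 0.9965 on log2(CPM + 0.5)), given as a description of libraries that share a group difference.

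Atp2a1 (ENSMUSG00000030730) encodes SERCA1, the pump of fast skeletal muscle. It was at 248, 36.4, 0.445 and 266 CPM in BAT_30C and at 111, 389, 181 and 0.247 CPM in BAT_5C. In WAT_30C it was at 16.6, 400.1, 1369.8 and 325 CPM and in WAT_5C at 870.3, 1.06, 13.2 and 33.4 CPM. Its lowest values fell in the libraries lowest in muscle markers, 22 counts in BAT_30C replicate 3 and 10 counts in BAT_5C replicate 4. The genes most like it were muscle genes: Ckm, Tnnt3 and Tnni2 over the 8 BAT libraries (Pearson r 0.998 to 0.9994 on log2(CPM + 0.5)) and Acta1, Ckm and Actn3 over the 8 WAT libraries (r 0.9971 to 0.9996).

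**Figure D3:**
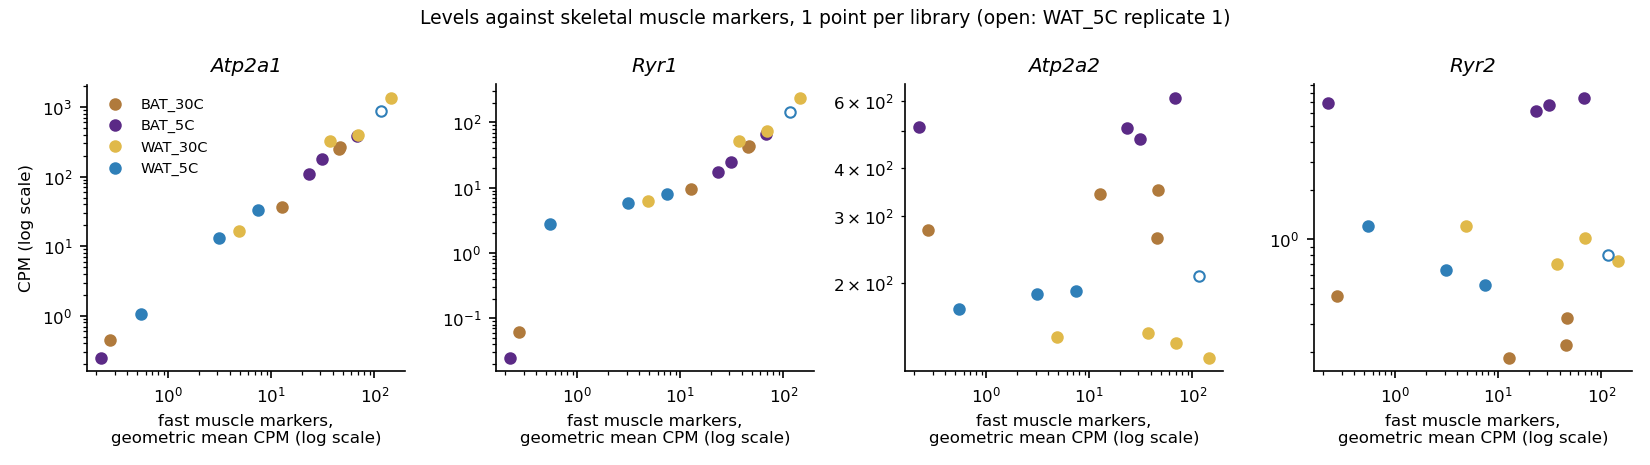
CPM of Atp2a1, Ryr1, Atp2a2 and Ryr2 against the geometric mean CPM of 15 fast muscle markers, both on log axes, with 1 point per library and WAT_5C replicate 1 open. Atp2a1 and Ryr1 climb with the markers from under 1 CPM at 0.223 and 0.273 CPM of markers, whereas in BAT Atp2a2 and Ryr2 separate the 2 temperatures at low and high marker levels, and in WAT the Ryr2 points of both temperatures overlap.

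Counts of Atp2a1 kept a near-constant ratio to those of Acta1, the skeletal muscle actin. The ratio was 0.580 to 1.0 in 15 libraries, and 2.20 in BAT_30C replicate 3, where it rests on 22 and 10 counts. No cold difference of Atp2a1 passed the test: the log2 value was 0.30 in BAT (SE 1.48, edgeR adjusted p = 0.877) and -1.23 in WAT (SE 1.77, edgeR adjusted p = 0.71). Without WAT_5C replicate 1 the WAT value was -5.09 (SE 1.57, edgeR adjusted p = 0.115). With the muscle marker level as a covariate the values shrank to 0.13 in BAT and -0.06 in WAT (SE 0.14 and 0.24). Part of the Atp2a1 exons, 21.9% of bases, is overlapped by Rabep2 on the other strand, and whether counting used the strand is not given in the sources used here.

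The pumps can be set side by side per length, as CPM per kb of merged exons. BAT_30C held 50.6 ± 7.44 CPM per kb of Atp2a2 (SD, n = 4) against 4.07 ± 0.428 of Atp2a3, and BAT_5C held 86.8 ± 9.58 against 4.73 ± 0.347. In the pair of muscle-poor BAT libraries Atp2a2 made up 91.6% of all pump RNA at 30 °C and 95.1% at 5 °C. In WAT_30C the order was the other way round, with 34.6 ± 5.84 CPM per kb of Atp2a3 and 23.1 ± 1.51 of Atp2a2. In WAT_5C, Atp2a2 was at 31.2 ± 2.56 and Atp2a3 at 23.6 ± 7.55 CPM per kb, or 30.1 ± 1.77 and 26.7 ± 5.15 without replicate 1 (n = 3). Atp2a3 thus lay above Atp2a2 on average in WAT at 30 °C and below it at 5 °C, while in WAT_5C replicate 2 it still lay above, at 32.7 against 28.1 CPM per kb.

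**Figure D4:**
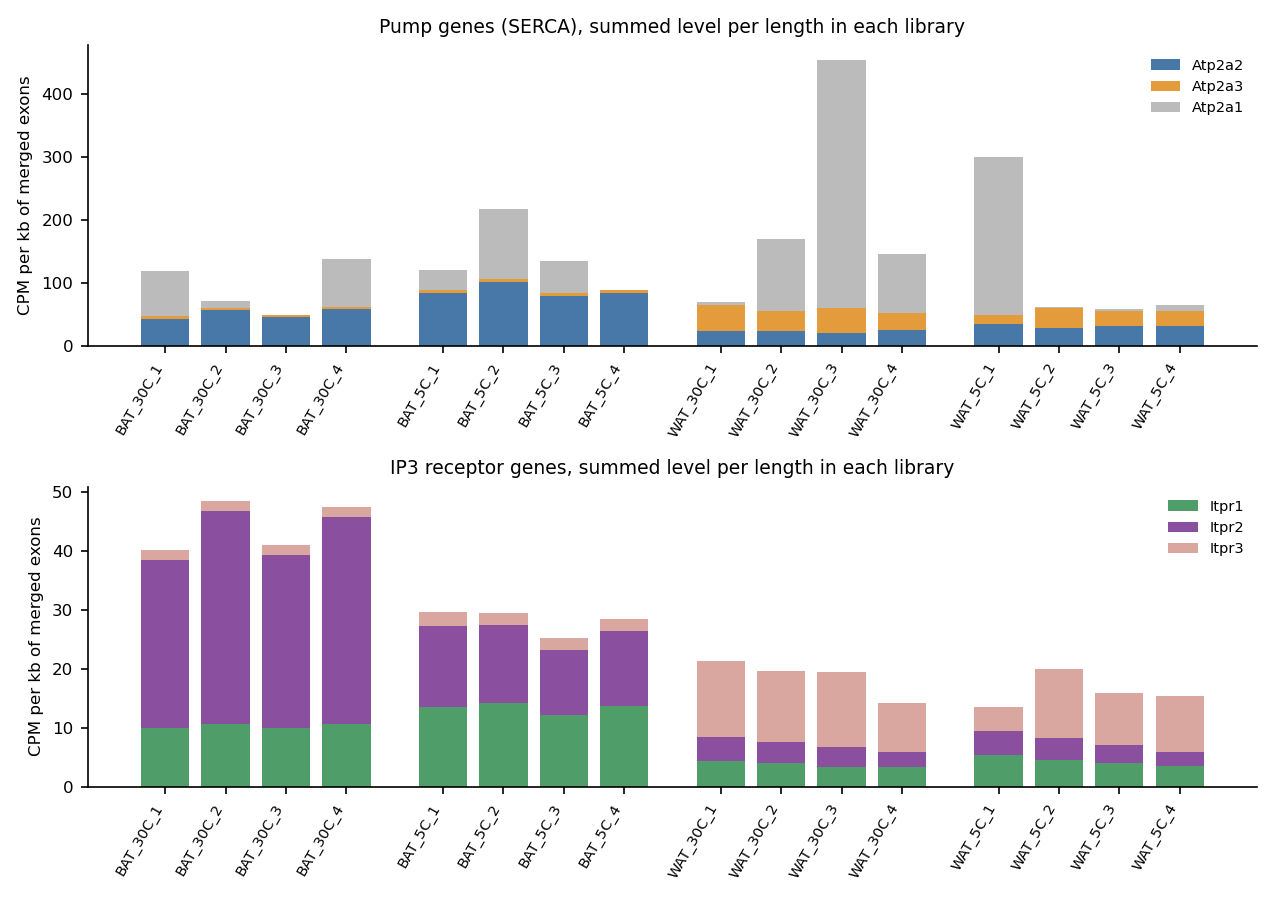
Summed level per length of the pump genes (upper) and the IP3 receptor genes (lower) in each library, in CPM per kb of merged exons, stacked by gene. Atp2a1 ranges from 0.0711 to 394 CPM per kb between libraries, and Itpr2 makes up 70.8 to 74.6% of IP3 receptor RNA in BAT_30C but 43.7 to 46.4% in BAT_5C.

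The pump inhibitors were scarce. Sln (ENSMUSG00000042045) encodes sarcolipin, which binds SERCA and uncouples its ATP use from transport. It had 8, 20, 0 and 35 counts in BAT_30C, 0, 61, 0 and 0 in BAT_5C, 0, 132, 1 and 0 in WAT_30C and 0, 0, 1 and 2 in WAT_5C. The highest level was 1.39 CPM, in BAT_5C replicate 2, and 8 of the 16 libraries had 0 counts, which allows up to 0.0849 CPM in the one with the highest limit (3 counts per library, counting error only). Sln did not pass the filter on low counts in either tissue alone, and no cold difference within a tissue was tested. In the fit of all 16 libraries the difference between the cold effects was -5.17 (SE 2.87, edgeR adjusted p = 0.222), and its sign turned without BAT_5C replicate 2 (2.43) or without WAT_30C replicate 2 (0.82).

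In WAT the most Sln was not in the library with the most fast muscle RNA. WAT_30C replicate 3 had 166953 counts of Acta1 and 1 of Sln, while WAT_30C replicate 2 had 56289 and 132. In BAT the highest Sln counts, 61 and 35, were in the libraries with the most Myh7, the slow fibre myosin, at 4281 and 1525 counts, and also the highest fast muscle markers of the 8 BAT libraries, at 67.8 and 45.9 CPM. In WAT, Myh7 was at 41 counts or fewer. The pair of BAT libraries poorest in muscle RNA had 0 counts of Sln.

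Pln (ENSMUSG00000038583) encodes phospholamban, the brake on SERCA2 in heart and slow muscle. It was at 1.60, 1.72, 1.68 and 0.957 CPM in BAT_30C and at 0.905, 1.23, 1.55 and 1.46 CPM in BAT_5C, and the groups overlapped. In WAT it was at 0.471, 0.965, 0.893 and 0.621 CPM at 30 °C and at 0.704, 0.352, 0.356 and 0.584 CPM at 5 °C, again overlapping. The cold difference was -0.21 in BAT (edgeR adjusted p = 0.507) and -0.60 in WAT (edgeR adjusted p = 0.351), or -0.81 without WAT_5C replicate 1 (edgeR adjusted p = 0.198). BAT was higher than WAT at both temperatures, by 1.01 at 30 °C (edgeR adjusted p = 0.00838) and 1.37 at 5 °C (edgeR adjusted p = 0.00118). With library totals these values were 0.17 and 0.48 and no longer passed (edgeR adjusted p = 0.589 and 0.136). Of the annotated Pln exon bases, 64.7% are overlapped on the other strand by Cep85l or Gm47644, so without strand its reads cannot be told from theirs.

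Per length, both inhibitors were far below the pump. Pln was at 0.540 ± 0.130 CPM per kb in BAT_30C and 0.467 ± 0.105 in BAT_5C, and Sln at 0.242 ± 0.251 and 0.264 ± 0.528, against the 50.6 and 86.8 CPM per kb of Atp2a2 given above. Arln, another-regulin, a SERCA-binding peptide of non-muscle cells, was the member of the 4 other listed SERCA peptides that was tested in BAT. It was at 47.7 ± 3.84 CPM in BAT_30C and 32.8 ± 2.32 CPM in BAT_5C and fell by 0.54 on the log2 scale (edgeR adjusted p = 0.000161), also with library totals (-0.92). In WAT its difference was 0.10 (edgeR adjusted p = 0.633), and the cold effects of the tissues differed by 0.67 (edgeR adjusted p = 0.00317). Mrln, the myoregulin of skeletal muscle, was at 1.89 CPM or less in all libraries.

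The ryanodine receptors differed widely from each other. The upstream sequences of Ryr2 and Ryr1 are shown with those of Itpr2 and Atp2a1 because these genes carry the opposed changes (Ryr2 and Itpr2 in BAT) and the shared muscle pattern (Ryr1 with Atp2a1). Each line gives the 250 bases before the annotated start, 5′ to 3′ on the gene's strand, from RefSeq on GRCm38.p6. Capitals mark the letters CANNTG, the E-box read by muscle and other helix-loop-helix factors.
Ryr2 (chr13:12106946-12107195, minus strand): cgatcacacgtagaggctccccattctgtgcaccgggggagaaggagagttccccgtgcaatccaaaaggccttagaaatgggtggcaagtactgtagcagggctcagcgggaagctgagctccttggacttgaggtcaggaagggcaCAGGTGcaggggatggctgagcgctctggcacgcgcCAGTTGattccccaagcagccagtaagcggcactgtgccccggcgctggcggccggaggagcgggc
Itpr2 (chr6:146502224-146502473, minus strand): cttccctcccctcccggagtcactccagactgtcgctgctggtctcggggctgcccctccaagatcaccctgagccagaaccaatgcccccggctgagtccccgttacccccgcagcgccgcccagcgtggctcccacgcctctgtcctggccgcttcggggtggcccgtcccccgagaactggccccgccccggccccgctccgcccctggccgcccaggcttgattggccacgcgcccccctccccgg
Ryr1 (chr7:29125152-29125401, minus strand): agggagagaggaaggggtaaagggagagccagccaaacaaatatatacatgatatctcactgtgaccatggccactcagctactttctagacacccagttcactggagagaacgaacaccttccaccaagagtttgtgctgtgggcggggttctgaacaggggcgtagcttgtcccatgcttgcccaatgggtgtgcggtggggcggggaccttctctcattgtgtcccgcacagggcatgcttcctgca
Atp2a1 (chr7:126463074-126463323, minus strand): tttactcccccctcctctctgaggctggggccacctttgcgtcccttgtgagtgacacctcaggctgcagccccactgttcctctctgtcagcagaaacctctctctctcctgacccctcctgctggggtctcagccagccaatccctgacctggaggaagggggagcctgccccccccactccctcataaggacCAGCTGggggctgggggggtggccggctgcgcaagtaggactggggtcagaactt
RefSeq promoters matched 6 of the 10 genes. CANNTG, searched on both strands, occurred 2 times in the Ryr2 stretch and 1 time in that of Atp2a1, where it read CAGCTG, and in neither of the others. Of 32851 mouse promoters of the same length, 66.2% hold CANNTG and 13.0% hold CAGCTG. The letters TGACGTCA (the full cAMP response element, in 1.55% of promoters), TGACG (which also lies inside the former, 17.8%), TATAAA (12.4%) and the MEF2 site (2.92%) were not in these 4 stretches. A match is a description of the letters and not of binding.

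Ryr2 (ENSMUSG00000021313) encodes the type 2 ryanodine receptor, the calcium release channel of heart muscle. It was at 0.221, 0.185, 0.445 and 0.326 CPM in BAT_30C and at 6.22, 7.49, 6.76 and 6.90 CPM in BAT_5C. The counts behind these levels were 12, 10, 22 and 15 at 30 °C and 220, 328, 287 and 279 at 5 °C, so no warm library came near a cold one. The log2 fold change was 4.54 (SE 0.26, edgeR adjusted p = 6.88e-07), or 23.2-fold, and it lay between 4.16 and 5.06 under all 17 alternative settings run for it. In the 4 BAT libraries whose labels all matched it was 5.06 (edgeR adjusted p = 0.000856).

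In the pair of BAT libraries with almost no fast muscle RNA, Ryr2 was at 0.445 CPM (BAT_30C replicate 3) and 6.90 CPM (BAT_5C replicate 4). With the fast muscle marker level as a covariate the change was 4.56 (SE 0.25). Markers of slow or heart muscle were not used as a covariate. In WAT, Ryr2 was at 1.21, 1.02, 0.737 and 0.704 CPM at 30 °C and at 0.800, 1.21, 0.641 and 0.518 CPM at 5 °C. The WAT groups overlapped, with a difference of -0.24 (SE 0.32, edgeR adjusted p = 0.692). The cold effects of WAT and BAT differed by -4.75 (SE 0.44, edgeR adjusted p = 7.68e-06). Without WAT_5C replicate 1 the WAT difference was -0.25 and the difference between tissues -4.80 (edgeR adjusted p = 0.706 and 6.07e-06).

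By level, Ryr2 ran from BAT_30C (mean 0.294 CPM) over WAT_5C (0.793) and WAT_30C (0.918) to BAT_5C (6.84). The neighbours WAT_5C and WAT_30C did not differ beyond their spread. BAT was lower than WAT at 30 °C, by 1.64 on the log2 scale (edgeR adjusted p = 0.000272), and higher at 5 °C, by 3.11 (edgeR adjusted p = 5.02e-07). Even at 5 °C its level per length in BAT, 0.238 ± 0.0180 CPM per kb, was low beside the 13.5 ± 0.907 CPM per kb of Itpr1. The genes most like Ryr2 over the 8 BAT libraries were Polr3c, Rxylt1 and Slc26a10 (r 0.9987 to 0.9993), given as a description of libraries that share the temperature groups.

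Ryr1 (ENSMUSG00000030592) encodes the release channel of skeletal muscle. It was at 41.7, 9.61, 0.0607 and 42.8 CPM in BAT_30C and at 17.5, 66.6, 25.1 and 0.0247 CPM in BAT_5C. In the pair of muscle-poor BAT libraries it had 3 counts and 1 count. Its cold difference in BAT was 0.21 (SE 1.30, edgeR adjusted p = 0.903), and -0.12 (SE 0.08) with the muscle level as a covariate. Ttn, Actn3 and Myoz1, all muscle genes, were most like it in BAT (r 0.9978 to 0.9995 over 8 libraries), and Txlnb, Cacna1s and Klhl41 in WAT (r 0.9974 to 0.9985).

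WAT held Ryr1 at 6.30, 73.7, 241 and 51.9 CPM at 30 °C and at 143, 2.80, 5.74 and 8.01 CPM at 5 °C. The difference was -1.25 (SE 1.39, edgeR adjusted p = 0.623), and -4.11 (SE 1.09, edgeR adjusted p = 0.0877) without WAT_5C replicate 1, where 2.11% of all genes passed, 1.84% higher and 0.274% lower. With the muscle level as a covariate it was 0.02 with all libraries and -0.05 without that one. In the WAT libraries poorest in muscle, Ryr1 did not drop as far as Atp2a1. WAT_5C replicate 2 had 254 counts of Ryr1 and 96 of Atp2a1, a ratio of 2.65, whereas the ratio was 0.10 to 0.264 in the 8 BAT libraries and 0.160 to 0.184 in the 4 WAT libraries with the most Acta1 (31677 counts or more). At 2.80 CPM that library lay above BAT_5C replicate 4, with 0.0247 CPM at 0.223 CPM of muscle markers.

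Ryr3 (ENSMUSG00000057378) encodes the type 3 ryanodine receptor, expressed at low level in many tissues. It had 10, 1, 10 and 4 counts in BAT_30C and 5, 17, 11 and 8 in BAT_5C, too few to place a change of 1.003 (SE 0.58, edgeR adjusted p = 0.164). In WAT it was at 2.60, 2.24, 2.11 and 0.561 CPM at 30 °C and at 1.33, 3.00, 1.69 and 2.30 CPM at 5 °C. The WAT groups overlapped (0.12, edgeR adjusted p = 0.902, and 0.27 without WAT_5C replicate 1, edgeR adjusted p = 0.759). BAT was lower than WAT by 3.91 at 30 °C (edgeR adjusted p = 3.12e-05) and by 3.05 at 5 °C (edgeR adjusted p = 0.000168), and no BAT library reached the lowest WAT library.

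The IP3 receptors moved in opposite directions in cold BAT. Itpr2 (ENSMUSG00000030287), the receptor type most sensitive to IP3, was at 423, 536, 435 and 521 CPM in BAT_30C and at 204, 194, 163 and 188 CPM in BAT_5C. Every cold library lay below every warm one, and Itpr2 fell by 1.35 on the log2 scale (SE 0.10, edgeR adjusted p = 3.73e-06), or 2.55-fold. With library totals the value was -1.73, and it lay between -1.73 and -1.27 under its 17 alternatives.

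Itpr1 (ENSMUSG00000030102), the type 1 receptor, was at 182, 195, 182 and 196 CPM in BAT_30C and at 249, 262, 223 and 252 CPM in BAT_5C. The groups did not overlap, and Itpr1 rose by 0.39 (SE 0.07, edgeR adjusted p = 0.000671). This rise depended on scaling: with library totals the value was 0.01 (edgeR adjusted p = 0.917). In the 4 libraries with matching labels it was 0.34 (edgeR adjusted p = 0.0712). A share of the family does not depend on library scaling. Itpr2 made up 72.8 ± 1.84% of IP3 receptor RNA per length in BAT_30C and 44.7 ± 1.17% in BAT_5C, while Itpr1 made up 23.3 ± 1.32% and 47.6 ± 1.18% (SD, n = 4). Itpr3 held the rest, 3.88 ± 0.528% and 7.64 ± 0.422%. The summed level of the family was 44.4 ± 4.27 CPM per kb at 30 °C and 28.3 ± 2.04 at 5 °C, without overlap between the groups.

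In WAT neither receptor passed the test. Itpr1 was at 79.5, 75.4, 61.9 and 60.1 CPM at 30 °C and at 98.7, 82.0, 75.2 and 63.3 CPM at 5 °C, and Itpr2 at 62.1, 51.5, 49.97 and 38.4 CPM and at 59.8, 55.2, 44.0 and 35.2 CPM. Both pairs of groups overlapped, with log2 differences of 0.18 and -0.09 (edgeR adjusted p = 0.543 and 0.83), and of 0.05 and -0.21 without WAT_5C replicate 1 (edgeR adjusted p = 0.854 and 0.55). The cold effect on Itpr2 differed between WAT and BAT by 1.30 (SE 0.24, edgeR adjusted p = 0.00142), and by 1.14 without WAT_5C replicate 1. Both receptors were higher in BAT: Itpr2 by 9.48-fold at 30 °C and 3.86-fold at 5 °C, and Itpr1 by 2.73-fold and 3.09-fold (edgeR adjusted p at most 1.74e-07). With library totals the same ratios were 5.22-fold, 2.03-fold, 1.51-fold and 1.63-fold. WAT was led by Itpr3 instead, with 61.3 ± 2.87% of IP3 receptor RNA per length at 30 °C and 51.9 ± 14.4% at 5 °C, or 59.0 ± 3.30% without WAT_5C replicate 1 (n = 3).

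The difference between the cold effects passed the test for 2 of the 10 genes, Itpr2 (higher in WAT) and Ryr2 (lower), where 20.8% of 19481 genes did. Without WAT_5C replicate 1 the count was 4, with Atp2a2 and Atp2a3 (-0.64, edgeR adjusted p = 0.0229) added on the lower side, against 31.3% of all genes. Of all genes tested, 2431 were higher (12.5%) and 1624 lower (8.34%), and 2608 and 1080 with library totals. Between the tissues, 7 of 10 genes differed at 30 °C and 7 at 5 °C, where 69.8% and 72.4% of all genes did. Atp2a2, Itpr1, Itpr2 and Pln were higher in BAT at both temperatures and Atp2a3 and Ryr3 lower, while Ryr2 was lower at 30 °C and higher at 5 °C. Without WAT_5C replicate 1 the differences at 5 °C were 1.51 for Atp2a2, -2.52 for Atp2a3, 1.73 for Itpr1, 2.05 for Itpr2, 1.56 for Pln, 3.09 for Ryr2 and -3.23 for Ryr3, and 7 genes passed at each temperature. Atp2a1, Ryr1 and Sln did not pass at either temperature; at 5 °C Atp2a1 and Ryr1 were at -0.43 and -0.55 with all libraries and at 3.40 and 2.29 without that one. Over all genes, 6712 were higher in BAT (34.5%) and 6884 lower (35.3%) at 30 °C, and 6201 (31.8%) and 7897 (40.5%) at 5 °C. With library totals the numbers were 2505 and 12875 at 30 °C and 2118 and 13882 at 5 °C. The comparisons of tissues and of temperatures share libraries.

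Around these genes, 63 other calcium handling genes were listed by role, and 58 were tested in BAT. There 24 rose and 12 fell, where 29.2% of all genes tested rose and 30.3% fell, so the share called in either direction was near the background of 59.5%. Their median log2 change was 0.19 against -0.05 over all genes; with library totals 12 rose and 22 fell, with medians of -0.19 and -0.43. In WAT none of 61 passed, and without WAT_5C replicate 1 only Letm1 did (0.98, edgeR adjusted p = 0.0421). Genes beyond the naming rule are named below to complete small counts and were chosen after their values were seen.

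**Figure D5:**
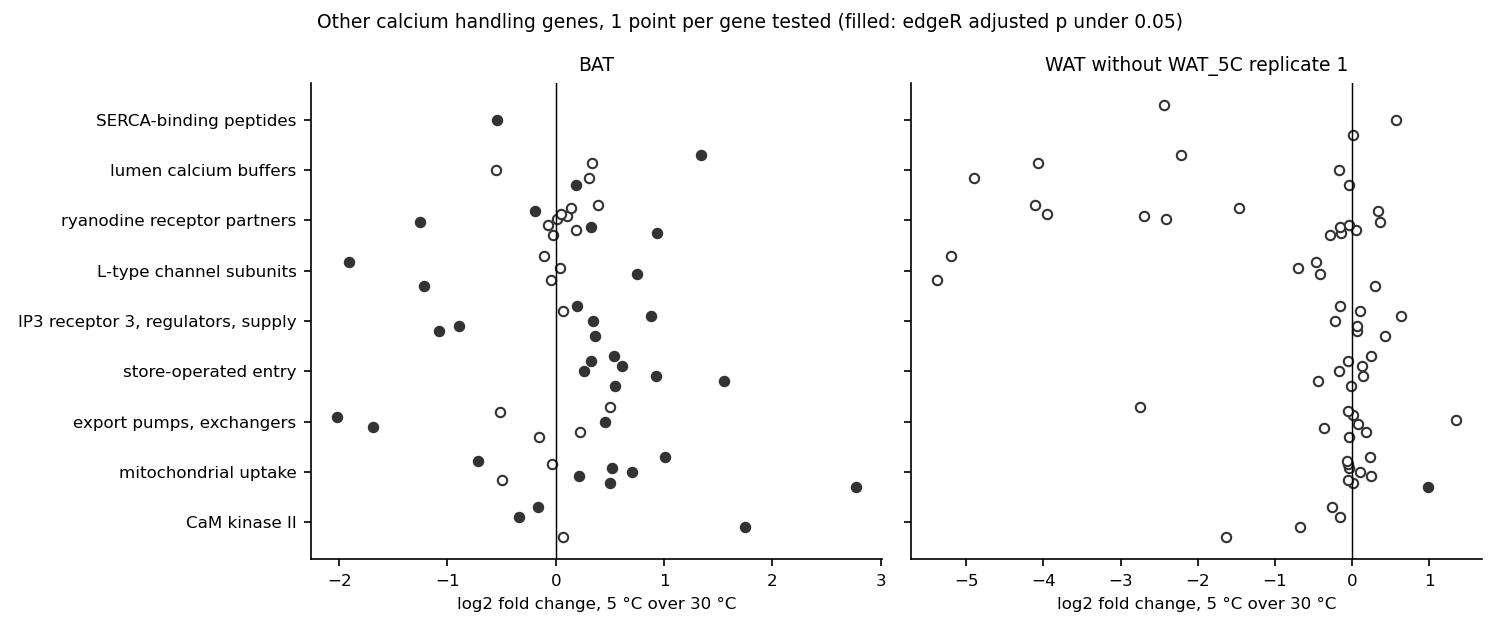
Log2 fold change between 5 °C and 30 °C for the other calcium handling genes, grouped by role, with 1 point per gene tested, in BAT and in WAT without WAT_5C replicate 1; filled points have an edgeR adjusted p under 0.05. All 7 genes of store-operated entry are filled and right of 0 in BAT under TMM scaling (4 are above 0 and past the test, and 1 below, with library totals), and Letm1 is the filled point in WAT.

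Store-operated entry refills the reticulum from outside when its calcium runs low. All 7 listed genes of this group rose in BAT under TMM scaling, where 29.2% of all genes did; with library totals Orai2, Orai3, Stim1 and Tmco1 still rose and Saraf, an inactivator of this entry, fell by 0.12. Tmco1, a leak channel of overfilled stores, went from 108 ± 3.13 to 156 ± 5.16 CPM (0.54, edgeR adjusted p = 1.66e-05). Stim1, the calcium sensor of the reticulum, went from 115.5 ± 6.04 to 177 ± 9.0 CPM (0.61, edgeR adjusted p = 2.2e-05), and Orai3, a pore subunit, from 38.6 ± 2.98 to 73.4 ± 8.79 CPM (0.93, edgeR adjusted p = 2.29e-05).

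Mitochondrial calcium genes included the largest BAT change among the 58 other listed calcium genes tested there; Ryr2 changed more. Letm1, an inner membrane protein of proton and cation exchange, was at 148 ± 12.6 CPM in BAT_30C and at 1009 ± 90.7 CPM in BAT_5C, a rise of 2.77 (SE 0.09, edgeR adjusted p = 4.66e-08). In WAT it was at 45.9 ± 4.82 CPM and 117 ± 53.1 CPM (1.32, edgeR adjusted p = 0.132). Of the 9 genes of this group 6 rose and 1 fell in BAT, where 29.2% and 30.3% of all genes did. With library totals 4 rose and 4 fell, against 2323 and 8831 of all 16213 genes. Smdt1, an essential subunit of the calcium uniporter, rose by 1.01, and by 0.62 with library totals. Slc8b1, the sodium and calcium exchanger that empties mitochondria, fell by 0.71, and by 1.09 with library totals.

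Of the 9 genes of export and exchange 7 were tested in BAT, where 1 rose and 2 fell, against 29.2% and 30.3% of all genes. Atp2b4, a plasma membrane calcium pump, went from 77.1 ± 9.69 to 23.9 ± 1.32 CPM in BAT and fell by 1.69 (edgeR adjusted p = 4.37e-07), and by 2.07 with library totals. Slc8a1, the plasma membrane sodium and calcium exchanger, fell by 2.02 from 1.48 ± 0.211 CPM (edgeR adjusted p = 0.000135). Atp2c1, a Golgi pump, rose by 0.45, and by 0.07 without passing (edgeR adjusted p = 0.267) with library totals. The cold effects of WAT and BAT differed for Atp2b4 (1.92, edgeR adjusted p = 0.0048) and Slc8a1 (2.03, edgeR adjusted p = 0.000428).

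Among the L-type channel subunits 1 of 6 rose and 2 fell in BAT, against 29.2% and 30.3% of all genes. Cacna1c, the pore of the heart and smooth muscle type, fell by 1.22 from 14.7 ± 2.03 CPM (edgeR adjusted p = 3e-05), and Cacnb2, an auxiliary subunit, by 1.91 from 1.53 ± 0.550 CPM (edgeR adjusted p = 0.000857). With library totals both still fell, by 1.59 and 2.29. Cacna2d1 rose by 0.75 (edgeR adjusted p = 0.0353), but did not pass with library totals (0.38). Cacna1s, the voltage sensor that opens Ryr1 in skeletal muscle, had a difference of -0.04 (SE 1.27) in BAT and of -5.38 in WAT without WAT_5C replicate 1 (edgeR adjusted p = 0.0986), with muscle markers at 0.545 to 7.40 CPM in the 3 remaining WAT_5C libraries and 4.82 to 144 CPM in WAT_30C.

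Of the partners of the ryanodine receptor, 2 of 12 were higher and 2 lower in BAT, where 29.2% and 30.3% of all genes were. Calm3, a calmodulin gene, rose by 0.32, but was at -0.06 with library totals. Fkbp1b, the immunophilin bound to Ryr2, fell by 1.26 from 0.698 ± 0.145 CPM (edgeR adjusted p = 0.0044), opposite to Ryr2 itself, and S100a1 fell by 0.19. Trdn, triadin of the junctional membrane, ranged from 0 to 16.8 CPM in BAT_5C and 0 to 10.3 CPM in BAT_30C, which is the spread seen for Ryr1.

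Regulators of IP3 receptors and suppliers of IP3 were 4 higher and 2 lower of 7 in BAT, against 29.2% and 30.3% of all genes. Plcb1, a phospholipase that makes IP3, rose by 0.88 to 22.5 ± 2.02 CPM (edgeR adjusted p = 5.62e-05). Irag1, which links cGMP kinase to IP3 receptors, fell by 0.90 to 8.99 ± 0.639 CPM (edgeR adjusted p = 4.93e-05), and Bok, a partner of Itpr1 and Itpr2, fell by 1.08 (edgeR adjusted p = 0.000455). Ahcyl1, Itpr3 and Plcg1 rose by 0.37, 0.34 and 0.19. With library totals Plcb1 rose (0.50), the differences of Ahcyl1, Itpr3 and Plcg1 were -0.01, -0.04 and -0.19, and Plcb3 joined Irag1 and Bok on the lower side.

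Of the lumen buffers 2 of 5 rose in BAT, where 29.2% of all genes did. Srl, sarcalumenin, rose by 1.34 from 31.3 ± 10.8 to 79.3 ± 23.8 CPM (edgeR adjusted p = 0.00206), and by 0.97 with library totals. Within WAT_30C it ran from 3.87 to 67.6 CPM, where fast muscle markers ran from 4.82 to 144 CPM. The BAT change of Srl with the muscle level as a covariate is not reported here, so the part of muscle RNA in it cannot be read from these values. Calr, calreticulin, rose by 0.19, while with library totals it fell by 0.19 (edgeR adjusted p = 0.0231). Casq1, the calsequestrin of fast muscle, ranged from 0.371 to 35.9 CPM within BAT_5C. Of the 4 calmodulin kinase II genes, whose products act on phospholamban and ryanodine receptors, Camk2b rose by 1.74 from 20.5 ± 14.1 to 68.8 ± 15.4 CPM (edgeR adjusted p = 0.00423), and Camk2d and Camk2g fell by 0.34 and 0.16. These 3 kept their directions with library totals, at 1.34, -0.72 and -0.55. Under TMM scaling 29.2% of all genes rose in BAT and 30.3% fell. Camk2b ran from 9.47 to 41.1 CPM within BAT_30C, and its change with the muscle level as a covariate is likewise not reported here.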

How the data were processed

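Per the labels, 16 poly(A) libraries of mouse BAT and inguinal WAT, 4 per group, were sequenced. The authors deposited raw counts per Ensembl gene in 1 table. Trim Galore and TopHat are listed, with no version, by the submitters' processing notes. The program that counted, its use of strand, the build and the gene models are not given in sources used here. Symbols, exon lengths and overlaps came from GENCODE M21, which named 45143 of 46078 identifiers.

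After TMM scaling, genes were kept by filterByExpr (at least 10 counts, total of at least 15) and tested with the edgeR 4.0.16 quasi-likelihood test (R 4.3.3) with Benjamini-Hochberg adjustment over all genes tested and a threshold of 0.05. Temperature effects came from a fit of the 8 libraries of a tissue. Tissue differences and the difference between cold effects came from a fit of all 16. CPM use the TMM-adjusted library size, with mean ± SD over 4 libraries. SE was computed as the size of the log2 difference divided by the root of F. The muscle level is the mean log2(CPM + 0.1) of 15 markers, compared by an exact permutation test. Depth limits precision for genes near the floor of 3 counts, which covers counting error only.

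No library was a copy of another: chi-square over its degrees of freedom was at least 21.4 in the 24 pairs within groups. The fits were also run on simulated data, with the outcome not reported here. The simulation held no carried muscle RNA and no library that stood apart, so no conclusion on the WAT fits is drawn from it.

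The genes, lists and tests were chosen with earlier results of these data known. All 10 genes are named; of each list, up to 3 genes with the smallest adjusted p per tissue, and for likeness the 3 genes with the highest Pearson r among filtered genes with a mean of at least 1 CPM, predicted genes left out. All 161 listed symbols matched, 4 of them by an older symbol or synonym. Alternatives were RLE size factors, library totals, no filter, DESeq2 1.42.0, limma-voom (limma 3.58.1) with quality weights, an adjusted p of 0.01, all libraries in 1 fit, a replicate block, a muscle covariate, libraries with matching labels and each library left out. The muscle covariate without WAT_5C replicate 1 and the marker list without Tnnc2 were added after the data were seen. Some listed genes are counted but not reported by name here.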

Additional observations from a re-analysis of the deposited data

Results flagged for a closer look

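In WAT_5C, replicate 1 lay far from the other 3 libraries for Atp2a1 (870.3 CPM, against 33.4 CPM or less) and for Ryr1 (143.5 CPM, against 8.01 CPM or less). The same library had 117 CPM of fast muscle markers, against 0.545 to 7.40 CPM in the others of its group, and 3 counts of Xist. Sln was found almost only in 1 library of its group in BAT_5C (replicate 2, 1.392 CPM) and in WAT_30C (replicate 2, 1.385 CPM), where the others had 0 or 1 counts. Pln in BAT_30C replicate 4, at 0.9566 CPM, lay below the other 3, at 1.60 to 1.72 CPM; that library had the most Myh7 of its group, 1525 counts. The part of these markers in the far values was not tested. Of 40 groups of values screened for a library far from the rest, chance would single out about 1 in 20.

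The cold effects of WAT and BAT differed by the edgeR quasi-likelihood test for Itpr2 (1.297, WAT minus BAT, adjusted p = 0.00142) and for Ryr2 (-4.748, adjusted p = 7.68e-06). Ryr2 in BAT was higher in 4 of 4 cold libraries than in any warm one, and Itpr2 lower in 4 of 4. The share of all genes so separated is not given here, so this is only a description. Of all 16213 genes tested in BAT, 59.5% had an edgeR adjusted p under 0.05. In WAT both genes overlapped between temperatures.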

How the results depend on the processing

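Over 48 pairs of a gene and a comparison, 930 values under alternatives kept direction and side of the threshold, 22 gained a call, 4 lost one and 40 turned direction. The cold effects on Atp2a2, Ryr2 and Itpr2 in BAT kept theirs in all 17 settings run for each. Itpr1 in BAT lost its call with library totals and in the 4 libraries with matching labels. Atp2a3 in BAT gained one in 5 settings (DESeq2, limma-voom, RLE, without BAT_30C replicate 1 and without BAT_5C replicate 4), in WAT in 2, and its difference between cold effects in 7. The cause of these shifts was not tested.

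With library totals the values that turned were -0.143 for the muscle level in BAT, -0.064, -0.164 and -0.150 for Atp2a1, Atp2a3 and Ryr1 in BAT, and -0.101 and -0.110 for Ryr3 and Itpr1 in WAT, where 82 genes passed. With limma-voom, Atp2a1 and Ryr1 in BAT were -0.472 and -0.760, Sln was 1.757 for the difference between cold effects and 2.820 for BAT_30C against WAT_30C, and Atp2a1 was 0.825 for BAT_5C against WAT_5C. It called 2 of the 10 genes and 2268 of all in WAT, and 6797 of all for the difference between cold effects. In the libraries with matching labels Atp2a1 and Ryr1 in BAT were -0.668 and -1.042, and 6058 genes passed. With the muscle covariate Ryr1 was -0.124 in BAT, 0.024 in WAT and 0.449 for the difference, Ryr3 in WAT -0.219 and Sln between tissues at 30 °C 1.228; it called 2 of the 10 genes and 5755 of all in WAT. With that covariate and without WAT_5C replicate 1, Atp2a1, Ryr3 and Itpr1 in WAT were 0.188, -0.078 and -0.237, and 603 genes passed. In WAT, 1 fit of all libraries called 1 of the 10 genes and 1587 of all, DESeq2 1 and 1119, no filter 25 of all, and an adjusted p of 0.01 called 0, where 2109 passed for the difference between cold effects. DESeq2 called 4 of the 10 genes and 5120 of all for that difference.

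Leaving out 1 library moved the muscle level in BAT from -1.542 (without BAT_30C replicate 3) to 1.989 (without BAT_5C replicate 4), Atp2a1 in BAT from -0.503 to 0.879, Ryr1 in BAT from -0.727 to 0.710, Ryr3 in WAT from -0.186 to 0.311 and Itpr2 in WAT from -0.206 to 0.049. The count of all genes called in WAT ran from 0 to 408, highest without WAT_5C replicate 1 and 273 without WAT_5C replicate 2. For the difference between cold effects, 2 to 4 of the 10 genes and 3221 to 6222 of all passed, most without WAT_5C replicate 1. Sln ran from -6.031 to 2.430 for that difference, from -0.996 to 5.846 between tissues at 30 °C and from -2.569 to 5.867 at 5 °C, and Atp2a1 and Ryr1 at 5 °C from -1.239 to 3.404 and from -1.488 to 2.292.

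Libraries of different groups with equal replicate numbers had residual correlations of -0.531 to 0.275. Unlike numbers were not compared, so whether equal numbers mark the same mouse cannot be told from these values. With a replicate block 0 genes passed in WAT and 4 of the 10 in BAT, among 9091 of all, and Sln between tissues at 30 °C was 2.196, and Atp2a1 and Ryr1 at 5 °C were 1.429 and 0.425.

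Counts of Sln (0 to 132) and of Ryr3 in BAT (1 to 17) are too low to place small changes. Overlapping exons on the other strand touch Pln and Atp2a1. Lengths are of merged exons over all annotated isoforms, so shares of a family depend on the annotation.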
